A study of Mus musculus with 12 samples.

Results

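Liver expression of 10 genes that make, recycle or break down coenzyme A (CoA) was followed across 12 male mice: the vanins Vnn1 and Vnn3, the pantothenate kinases Pank1, Pank2, Pank3 and Pank4, the synthesis enzymes Ppcs and Coasy, and the CoA-cleaving hydrolases Nudt7 and Nudt19. The members are every probe set whose platform gene symbol is one of these names; the names were listed with earlier results of these data known. They make up 22 of 45101 probe sets, and 21 of the 22 passed a filter on low signal, at least 1 for each of the 10 genes. In the comparisons each gene is represented by its brightest probe set among 13598 genes tested.

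The 4 groups, 3 mice each, were Clk/Clk mutants on a Jcl:ICR background fed bezafibrate, PPARalpha-null mice (129S4SvJae-PPARalphatm1Gonz/J crossed with Jcl:ICR) fed bezafibrate, wild-type Jcl:ICR mice fed bezafibrate, and wild-type Jcl:ICR mice on the normal diet. Bezafibrate, a fibrate drug that activates peroxisome proliferator-activated receptors (PPARs), was given in the diet (0.5% w/w) over 5 days. Animals were aged 6 to 12 weeks, lived under alternating light and dark, and were sampled at zeitgeber time 14, in the dark phase, when the transcription factor pair CLOCK/BMAL1 is most active according to the study design. The null line carries 129S4SvJae genome that the other groups lack, and neither mutant was studied untreated, so the effect of a genotype and its effect on the drug response cannot be told apart.

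CoA carries acyl groups through fatty acid oxidation and lipid synthesis. Cells make it from pantothenate (vitamin B5): pantothenate kinases phosphorylate the vitamin in the controlling step, Ppcs joins cysteine to the product, a decarboxylase follows, and the bifunctional enzyme Coasy completes the molecule. Nudix hydrolases of the peroxisome, among them Nudt7 and Nudt19 in mouse tissues, cleave CoA, and extracellular vanins split pantetheine, a breakdown product, into pantothenate that can be used again and the aminothiol cysteamine. PPARα is the main fibrate receptor of mouse hepatocytes, and the study asked which of its target genes also depend on CLOCK.

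On the log2 scale the 12 arrays were alike in level, with medians of 5.45 to 5.5. The brightest Ppara probe set still gave signal in the null livers (mean 9.88, against 10.78 in treated wild type) and that of Clock was higher in Clk/Clk livers (9.25, against 8.17 in treated wild type). The sources used here do not place these probe sets on the mutant alleles, so their signal does not check the genotypes. Of 10 hepatocyte markers 8 were measured, with a mean log2 level of 13.68 to 13.76 in Clk/Clk, 13.81 to 13.93 in null, 13.48 to 13.58 in treated wild-type and 14.03 to 14.09 in untreated mice; 2 of the 8 fell with the drug in wild type, and the median difference was -0.39. All 8 stellate cell markers were measured, at 8.76 to 8.81 in Clk/Clk, 8.66 to 8.88 in null, 8.65 to 8.69 in treated wild-type and 9.07 to 9.14 in untreated mice, and 3 of the 8 fell with the drug. Over all genes 7.77% fell with the drug by the same rule, which is given in the next paragraph. The part of the marker shifts in the results was not tested. In bulk liver, fewer cells of a type and less RNA per cell cannot be told apart.

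In wild-type liver bezafibrate raised 4 of the 10 genes and lowered 1. The vanins Vnn1 and Vnn3, the pantothenate kinase Pank2 and the synthesis enzyme Ppcs rose, and the CoA hydrolase Nudt7 fell. A gene is said to rise or fall when limma's Benjamini-Hochberg adjusted p over all genes is under 0.05 and the difference is at least 1.5-fold. Over all 13598 genes the same rule called 12.8% higher and 7.77% lower, 20.6% in all. The median difference of the 10 genes was 0.45 on the log2 scale, against 0.01 over all genes. Without probe sets whose name ends in _a_at, _s_at or _x_at, which can match several transcripts, Ppcs and Nudt19 could not be tested and Pank2 was not called, leaving 3 calls. The share of all genes called without them is not given here.

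**Figure D1:**
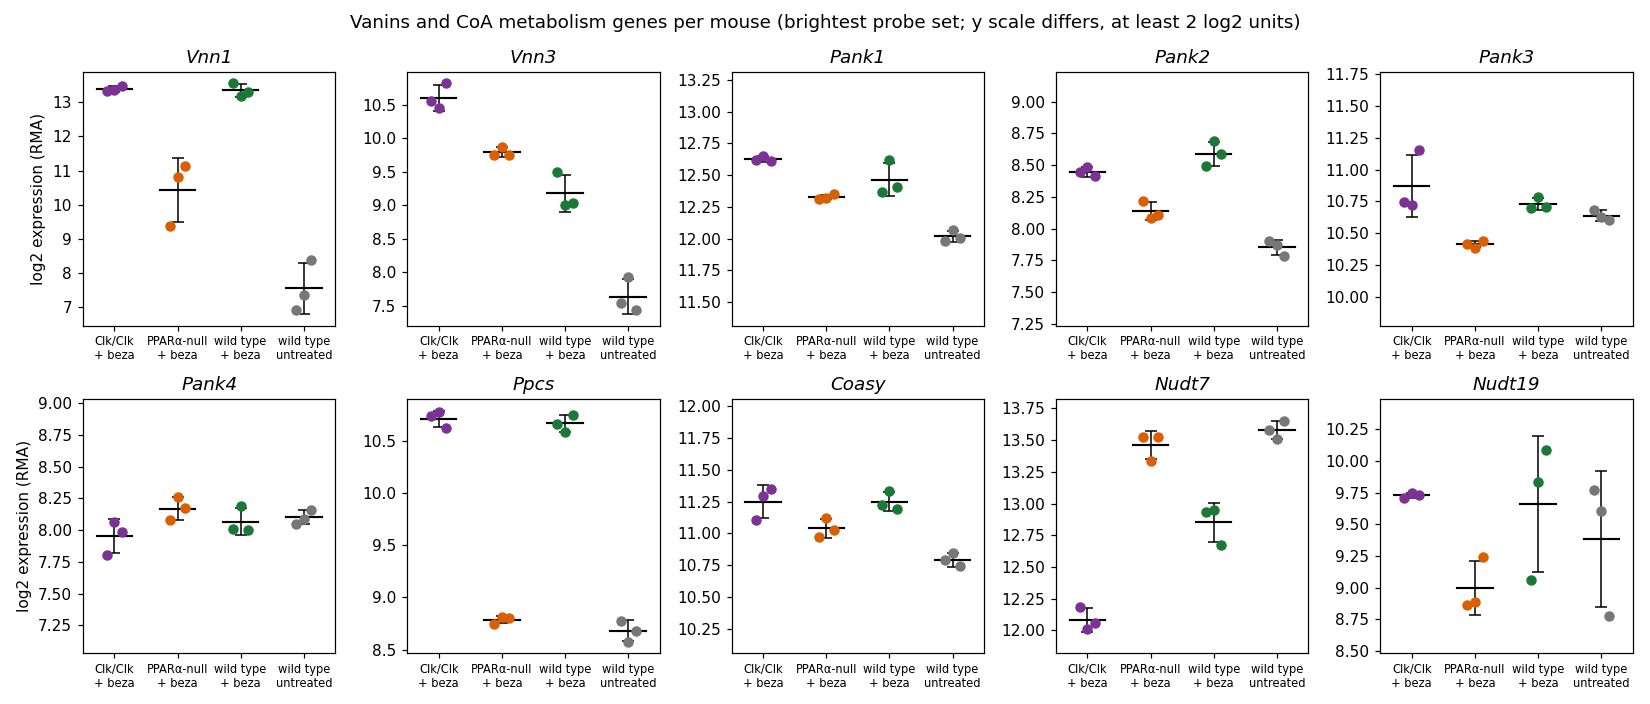
Log2 expression of each gene's brightest probe set in every mouse (points), with the group mean (bar) and SD (whisker) for n = 3 mice per group; the y scale differs between panels. Vnn1 and Ppcs sit high in treated Clk/Clk and treated wild-type mice, and Vnn3 is highest in Clk/Clk mice. Nudt7 is lower in the groups where Ppcs is high. It is lowest in Clk/Clk mice, where Ppcs stays near its treated wild-type level.

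Vnn1 (chr10:23894688-23905344, GRCm38.p6), the pantetheinase of liver, kidney and gut epithelia, showed the largest change of the 10. Its log2 values were 13.55, 13.20 and 13.29 in treated wild-type mice, against 6.91, 7.36 and 8.38 in untreated wild-type mice. The groups lay far apart, and the untreated mice differed among themselves by more than the treated ones did. The difference was 5.80 (SE 0.421, 55.7-fold, adjusted p = 9.54e-07). A second Vnn1 probe set gave 7.23 (SE 0.421), but it read 4.30 in 1 untreated mouse, under the filter level of 4.87 to 4.92, so that fold is not exact.

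In treated PPARα-null livers Vnn1 was lower than in treated wild type and still above the untreated level. The values were 9.36, 10.80 and 11.12 in null mice, with null mouse 1 clearly below the other two and above every untreated mouse. The difference of null mice from treated wild type was -2.92 (SE 0.421, adjusted p = 2.98e-04). Against untreated wild type they were higher by 2.88 (SE 0.421, 7.37-fold, adjusted p = 8.85e-04), and the second probe set gave 3.56 (SE 0.421).

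Clk/Clk livers held Vnn1 at 13.34, 13.35 and 13.49, inside the spread of treated wild type. The difference from treated wild type was 0.05, with a 95% interval of -0.88 to 0.97 and an adjusted p of 0.948. The estimate of spread behind that interval also includes the null and untreated mice, whose Vnn1 values varied most.

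Vnn3 (chr10:23851462-23869843), the second vanin, lies 24844 bases from Vnn1 on chromosome 10 (GRCm38.p6), with no other gene between them in the table used. It rose to 9.50, 9.01 and 9.03 in treated wild-type mice, against 7.55, 7.93 and 7.43 in untreated mice. All treated values were above all untreated ones, by 1.54 on average (SE 0.156, 2.91-fold, adjusted p = 1.19e-05).

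Whereas Vnn1 was lower than in treated wild type in null mice alone, Vnn3 was lower in neither mutant. It read 9.76, 9.88 and 9.75 in treated null mice, above every treated wild-type mouse, a difference of 0.61 (SE 0.156, adjusted p = 0.0107). This was just past the 1.5-fold minimum, and it fell under it when null mouse 2 was left out (0.57), or either of treated wild-type mice 2 (0.53) and 3 (0.54). In Clk/Clk mice Vnn3 reached 10.55, 10.45 and 10.82, higher than treated wild type by 1.43 (SE 0.156, 2.69-fold, adjusted p = 1.65e-04). Clk/Clk mice also exceeded null mice, by 0.81 (SE 0.156, adjusted p = 0.00173). Set against untreated wild type, the differences were 2.16 (SE 0.156) in null and 2.97 (SE 0.156) in Clk/Clk mice.

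Per mouse, the log2 value of Vnn1 minus that of Vnn3 differed by -3.53 between null and treated wild-type mice and by -1.38 between Clk/Clk and treated wild-type mice, with no overlap between groups. In the drug comparison it was higher in treated than in untreated wild type by 4.26. Each exact two-sided permutation test gave p = 0.1, the smallest possible with 3 against 3 mice, and 0.115 after adjustment over the 15 such tests, so none can pass 0.05.

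Myeloid cells are among the cells that a liver sample can hold beside hepatocytes. Of 10 neutrophil and monocyte markers 5 were measured, and their mean log2 level was 6.87 to 7.10 in Clk/Clk, 7.02 to 7.36 in null, 6.82 to 7.92 in treated wild-type and 6.63 to 6.94 in untreated mice. All 10 macrophage markers were measured, at 8.02 to 8.29 in Clk/Clk, 8.40 to 8.58 in null, 8.39 to 8.88 in treated wild-type and 8.40 to 8.68 in untreated mice. Their part in the Vnn3 values was not tested.

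The start region of Vnn3 is shown because the gene was above its untreated wild-type level in all 3 treated groups. RefSeq (GRCm38.p6) places it at chr10:23851212-23851511 on the plus strand, from 250 bases before to 50 bases after the start.
Vnn3: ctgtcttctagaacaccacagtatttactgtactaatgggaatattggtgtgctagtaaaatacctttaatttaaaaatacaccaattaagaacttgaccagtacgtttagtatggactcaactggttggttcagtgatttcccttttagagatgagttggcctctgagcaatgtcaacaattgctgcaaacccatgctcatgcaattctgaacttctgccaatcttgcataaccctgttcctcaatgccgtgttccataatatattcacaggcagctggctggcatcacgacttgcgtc
It holds no AGGTCA, the hexamer bound by PPAR and many other nuclear receptors, on either strand, and no CACGTG E-box, the element bound by CLOCK/BMAL1. Most windows lack each of them: of 32851 windows 16.3% hold AGGTCA and 7.15% hold CACGTG. The Vnn3 window holds 1 antioxidant response element core, TGACNNNGC with N any base, which is in 12.4% of all windows. Among the windows of the other members this core is 2 times in that of Nudt19 and 1 time in 1 Pank2 window. No window is held for Vnn1.

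The pantothenate kinases changed little beside Vnn1 and Ppcs. Pank1, abundant in liver, read 12.37, 12.62 and 12.41 in treated wild-type mice, against 11.98, 12.07 and 12.00 in untreated mice. The groups did not overlap, but the difference of 0.45 (SE 0.071, adjusted p = 3.24e-04) was 1.36-fold and so under the 1.5-fold minimum.

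The size of the Pank1 difference depended on the probe set. In a fit over all 28344 probe sets past the filter the other 3 gave 0.51 (SE 0.0754), 1.05 (SE 0.0895) and 1.81 (SE 0.186), all higher in treated wild type, and the 2 largest were called. The largest came from a dim probe set that read 4.67, 4.79 and 4.97 in untreated mice, near the filter level. With the mean of its 4 probe sets Pank1 was called at 0.95 (adjusted p = 4.04e-06).

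In null livers the brightest Pank1 probe set read 12.31, 12.32 and 12.35, between untreated and treated wild type. Its difference from treated wild type was -0.14 (SE 0.071, adjusted p = 0.161), and the other 3 gave -0.23, -0.57 and -1.0, of which the last was called. In Clk/Clk livers it read 12.62, 12.65 and 12.61, a difference of 0.16 (adjusted p = 0.12) from treated wild type with overlapping groups.

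Pank2 (chr2:131262008-131299188), the kinase whose human form is targeted to mitochondria, rose to 8.49, 8.69 and 8.59 in treated wild type, against 7.90, 7.87 and 7.78 in untreated mice. The groups lay apart by 0.74 (SE 0.0708, 1.67-fold, adjusted p = 7.71e-06). A second, dimmer probe set did not show this and gave -0.16 (SE 0.111, adjusted p = 0.279), and with the mean of both the gene was not called (0.29). The third stayed under the filter, at 4.06 to 4.88 over all 12 mice. Null mice read 8.22, 8.09 and 8.11 and differed from treated wild type by -0.45 (SE 0.0708, adjusted p = 5.18e-04), under the 1.5-fold minimum. The dimmer probe set had the opposite sign there (0.28, SE 0.111, adjusted p = 0.0772), also without overlap. Clk/Clk mice read 8.44, 8.49 and 8.41, at -0.14 (adjusted p = 0.166).

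Pank3 was not called for the drug in wild type. It read 10.70, 10.78 and 10.70 in treated mice, against 10.69, 10.62 and 10.60 in untreated mice, a difference of 0.09 with a 95% interval of -0.13 to 0.31. Null mice read 10.42, 10.39 and 10.44, below every mouse of the other groups, at -0.32 from treated wild type (SE 0.101, adjusted p = 0.0307), under the 1.5-fold minimum but called with the mean of its probe sets (-0.64). Clk/Clk mice read 10.74, 10.72 and 11.15. A dimmer Pank3 probe set was called lower in null mice (-0.97, SE 0.165, adjusted p = 0.00104) and in Clk/Clk mice (-0.65, SE 0.165, adjusted p = 0.0158), so the 2 probe sets differ in direction for Clk/Clk mice.

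Pank4, which has a kinase-like part without pantothenate kinase activity in mammals, was not called in any comparison. It spanned 7.81 to 8.06 in Clk/Clk, 8.08 to 8.26 in null, 8.0 to 8.19 in treated wild-type and 8.05 to 8.16 in untreated mice, and all groups overlapped in the main comparisons. The 95% interval of the drug difference in wild type was -0.22 to 0.15.

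Within each mouse, Pank1 minus Pank3 and Pank1 minus Pank4 were higher in treated than in untreated wild type, by 0.36 and 0.48, with separate groups. Pank1 minus Pank2 differed by -0.29, and by 0.66 with the mean of each gene's probe sets. Each exact permutation test gave p = 0.1, the smallest possible with 3 against 3 mice, and 0.115 after adjustment.

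Ppcs (chr4:119418527-119422440), which joins cysteine to phosphopantothenate, rose with little spread between mice. It read 10.67, 10.59 and 10.75 in treated wild-type mice, against 8.78, 8.58 and 8.68 in untreated mice. The difference was 1.99 (SE 0.0744, 3.98-fold, adjusted p = 1.26e-08).

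In treated null mice Ppcs read 8.75, 8.81 and 8.80, overlapping the untreated wild-type values. The difference of null mice from treated wild type was -1.89 (SE 0.0744, 3.70-fold, adjusted p = 2.67e-08). Against untreated wild type they differed by 0.11, with a 95% interval of -0.06 to 0.27. Clk/Clk mice read 10.74, 10.78 and 10.62, within 0.04 of treated wild type on average (95% interval -0.12 to 0.21, adjusted p = 0.711). No untreated mutants were measured, so a change with the drug within either genotype is not known. Treated Clk/Clk livers held Ppcs near the treated wild-type level, and treated null livers near the untreated wild-type level.

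The Ppcs start region is shown for this clear pattern, and the capitals mark the nuclear receptor hexamer. It lies at chr4:119422371-119422670 on the minus strand.
Ppcs: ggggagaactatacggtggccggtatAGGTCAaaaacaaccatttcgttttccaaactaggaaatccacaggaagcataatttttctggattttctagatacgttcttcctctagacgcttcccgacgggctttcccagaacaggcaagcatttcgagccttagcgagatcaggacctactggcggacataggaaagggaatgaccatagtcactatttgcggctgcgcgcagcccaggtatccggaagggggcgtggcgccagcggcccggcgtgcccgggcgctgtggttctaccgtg
AGGTCA occurred 1 time, its first base 224 bases before the start. Of 32851 windows of this length 16.3% hold AGGTCA on either strand. A match to the DR1 direct repeat, the kind of element PPAR binds with its partner RXR, was not in the window and is in 0.381% of all windows. CACGTG was also not in it, against 7.15% of all windows. RefSeq windows were held for 8 of the 10 genes, 12 windows in all, and AGGTCA was in the Ppcs window alone among them. These matches describe letters and not binding.

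Coasy, the last enzyme of CoA synthesis, read 11.22, 11.33 and 11.19 in treated wild-type mice, against 10.79, 10.85 and 10.74 in untreated mice. The groups were separate, and the difference of 0.46 (SE 0.0791, 1.37-fold, adjusted p = 5.88e-04) was under the 1.5-fold minimum. Its second probe set gave 0.56 (SE 0.0901). Null mice read 10.97, 11.12 and 11.02, at -0.21 from treated wild type (adjusted p = 0.0606), and Clk/Clk mice 11.11, 11.29 and 11.35, at 0.00 (95% interval -0.17 to 0.18).

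Nudt7 (chr8:114133574-114154731), a peroxisomal CoA diphosphatase of liver, moved against the synthesis genes. It fell to 12.93, 12.95 and 12.67 in treated wild-type mice, against 13.58, 13.51 and 13.65 in untreated mice. The groups were separate, and the difference was -0.73 (SE 0.0923, 1.66-fold, adjusted p = 6.33e-05).

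Treated null mice held Nudt7 near the untreated wild-type level, and Clk/Clk mice had the least. The null values were 13.53, 13.33 and 13.52, higher than treated wild type by 0.61 (SE 0.0923, adjusted p = 4.29e-04) and at -0.12 from untreated wild type (95% interval -0.32 to 0.08). Leaving out null mouse 1 (0.57), null mouse 3 (0.58) or treated wild-type mouse 3 (0.52) put the difference under the 1.5-fold minimum. The Clk/Clk values were 12.19, 12.01 and 12.06, all below every treated wild-type mouse, at -0.77 (SE 0.0923, 1.70-fold, adjusted p = 2.80e-04). Against untreated wild type Clk/Clk mice were at -1.50 (SE 0.0923, 2.82-fold, adjusted p = 2.46e-07).

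Of the other 3 Nudt7 probe sets 2 showed the same order of groups. In the fit over all probe sets they gave -0.86 and -0.99 for the drug in wild type, 0.68 and 0.69 for null against treated wild type, and -0.97 and -0.46 for Clk/Clk against treated wild type. The fourth, the dimmest, differed by 0.24 (SE 0.113, adjusted p = 0.103) with the drug and by -0.10 in null mice, and was lower in Clk/Clk mice (-0.89, SE 0.113, adjusted p = 3.70e-04). With the mean of all 4, the drug and null differences (-0.58 and 0.47) were no longer called.

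A Nudt7 start region, chr8:114133368-114133667 on the plus strand, is shown because this gene fell where Ppcs rose.
Nudt7: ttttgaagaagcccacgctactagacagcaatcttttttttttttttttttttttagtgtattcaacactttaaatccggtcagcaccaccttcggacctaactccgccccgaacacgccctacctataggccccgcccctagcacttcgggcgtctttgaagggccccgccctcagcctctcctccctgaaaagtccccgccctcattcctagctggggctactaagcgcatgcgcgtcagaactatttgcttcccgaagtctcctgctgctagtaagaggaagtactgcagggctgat
It holds neither AGGTCA nor CACGTG. A second listed start window overlaps it and holds neither as well.

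Nudt19, a CoA hydrolase described in mouse kidney and liver peroxisomes, varied among the wild-type mice of both diets, and its brightest probe set was not called in any comparison. It read 9.71, 9.74 and 9.73 in Clk/Clk mice, 8.86, 8.89 and 9.24 in null mice, 9.06, 9.83 and 10.09 in treated wild type, and 9.77, 9.61 and 8.78 in untreated wild type. Treated wild-type mouse 1 and untreated mouse 3 were low for their groups, and the second probe set was lowest in the same mice. The drug difference in wild type was 0.28 (SE 0.274, 95% interval -0.32 to 0.88), and 0.52 on the second probe set (SE 0.175, 1.43-fold, adjusted p = 0.0304). Null mice were at -0.66 from treated wild type (SE 0.274, adjusted p = 0.0817), and at -0.96 and called without treated wild-type mouse 1 (adjusted p = 0.0136). Clk/Clk mice exceeded null mice by 0.73 (SE 0.274, adjusted p = 0.056), without overlap, and this was called with the mean of the probe sets (0.66), a 60th percentile filter, array weights (0.68) or only these 2 groups fitted. The second probe set was called higher in Clk/Clk than in null mice (0.59, SE 0.175, adjusted p = 0.0218) and than in untreated wild type (0.60, SE 0.175, adjusted p = 0.0153).

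**Figure D2:**
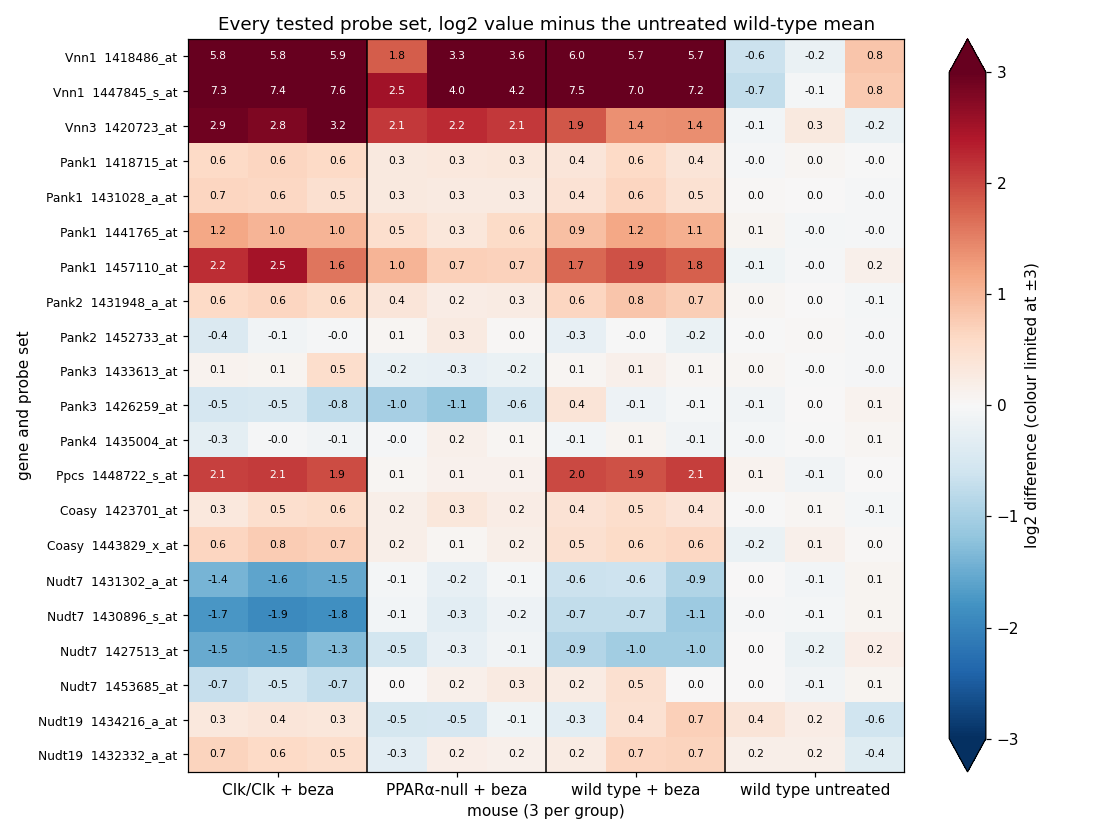
Each row is a probe set past the filter and each column a mouse, 3 per group; the number and colour give the log2 difference from that probe set's mean in untreated wild type, with colour limited at 3. Both Vnn1 probe sets agree, the 4 Pank1 probe sets agree in direction but not in size, and 1 of 4 Nudt7 probe sets is not lower in treated wild type.

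Across genes, PPARα-null against treated wild type called 2 of the 10 lower (Vnn1 and Ppcs) and 2 higher (Vnn3 and Nudt7), beside 8.09% lower, 5.35% higher and 13.4% in all over all genes. Without treated wild-type mouse 3 only the 2 lower calls were left. Clk/Clk against treated wild type called 1 higher (Vnn3) and 1 lower (Nudt7), beside 2.64% higher, 6.49% lower and 9.13% in all. Treated null against untreated wild type called 2 higher (Vnn1 and Vnn3), beside 3.96% higher and 6.65% in all. Treated Clk/Clk against untreated wild type called 5 higher (Vnn1, Vnn3, Pank1, Pank2 and Ppcs) and Nudt7 lower, beside 10.6% higher, 8.82% lower and 19.5% in all. The Pank2 call there (0.60) was lost with the mean of probe sets (0.21), quantile normalization (0.58), and when Clk/Clk mouse 2 (0.58) or untreated mouse 3 (0.56) was left out. Clk/Clk against null called 3 higher (Vnn1, Vnn3 and Ppcs) and Nudt7 lower, beside 7.43% higher, 7.78% lower and 15.2% in all. These comparisons share groups, so they are not independent of each other.

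**Figure D3:**
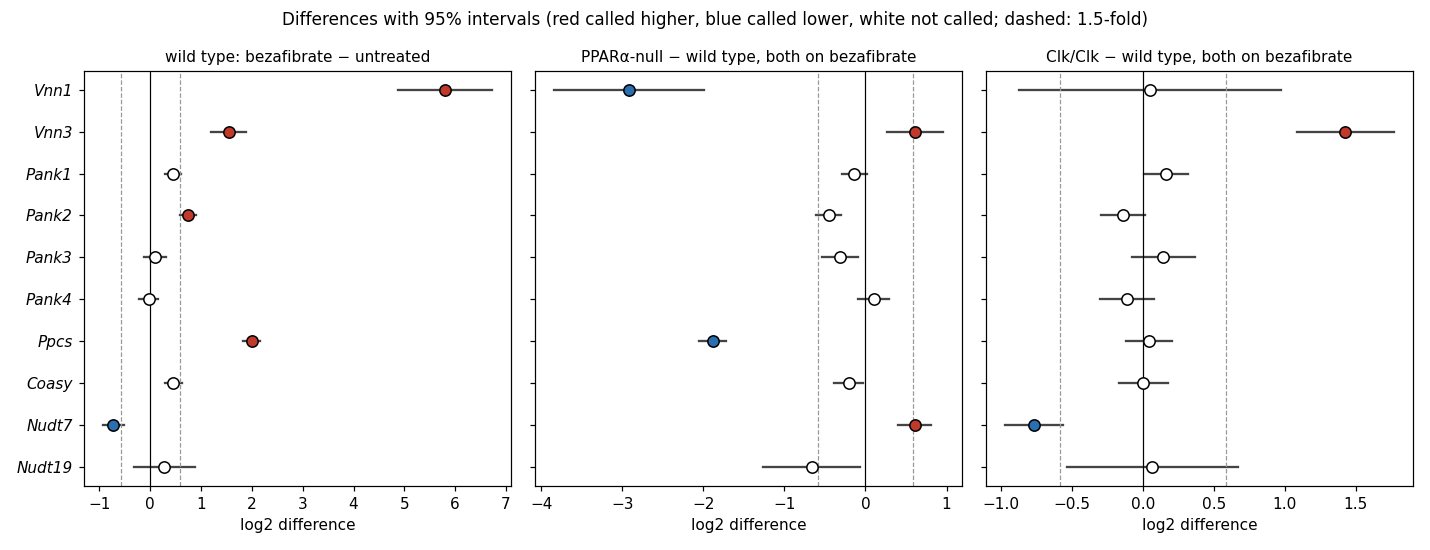
Log2 differences (points) with 95% intervals (lines) for the 10 genes in the 3 main comparisons, each with 3 mice per group; dashed lines mark 1.5-fold, and the x scale differs between panels. Vnn1 and Ppcs are right of 0 with the drug, left of it in null mice and at 0.05 and 0.04 in Clk/Clk mice, whereas Nudt7 is left of 0 with the drug and in Clk/Clk mice.

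The genes most like each member over the 12 arrays were taken by Pearson correlation, as a description, since the 12 points fall into 4 groups. Closest to Vnn1 were Pdk4 (r = 0.993), a kinase that limits glucose oxidation, Acot2 (0.993), a mitochondrial acyl-CoA thioesterase, and Hsdl2 (0.990). Closest to Ppcs were Pex11a (0.995), which promotes peroxisome division, Mmd (0.995) and the enoyl-CoA isomerase Eci2 (0.995). Closest to Nudt7 were the major urinary proteins Mup3 (0.992) and Mup10 (0.989) and the organic anion transporter Slco1a1 (0.989). Closest to Vnn3 were Mprip (0.98), Cyb561d2 (0.962) and Acad10 (0.961). For Pank2 they were Vwa8 (0.985), Plbd1 (0.983) and Cstb (0.978), and for Nudt19 no gene exceeded 0.872, the value of Gpatch1.

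Of 9 other CoA pathway genes tested, 2 rose and 2 fell with the drug in wild type, beside 12.8% and 7.77% of all genes, with a median of 0.25 against 0.01 over all genes. Slc25a42, the mitochondrial CoA carrier, rose by 1.35 (SE 0.136), reading 8.93, 9.15 and 9.33 in treated against 7.45, 7.99 and 7.92 in untreated mice. Dcakd, a homologue of dephospho-CoA kinase, rose by 0.89 (SE 0.12) and was lower in null than in treated wild-type mice (-0.65, SE 0.12).

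Enpp3, an ectoenzyme that hydrolyses nucleotides, fell with the drug (-1.36, SE 0.108) and was higher in null (0.87) and in Clk/Clk mice (0.85) than in treated wild type. Slc25a16, a mitochondrial carrier, fell too (-0.74, SE 0.071). In Clk/Clk mice Slc25a17, the peroxisomal carrier of CoA and other nucleotides, was lower than in treated wild type (-1.21, SE 0.133), at 8.82, 8.80 and 8.74 in Clk/Clk mice, against 10.09, 9.64 and 10.26 in treated wild-type mice. Slc5a6, which takes up pantothenate and biotin, was lower too (-0.74, SE 0.185, adjusted p = 0.0143), at a mean of 5.72 in Clk/Clk and 6.45 in treated wild-type mice. Against treated wild type 1 of the 9 genes was called higher and 2 lower in Clk/Clk mice, beside 2.64% and 6.49% of all genes. In null mice 1 was called higher and 1 lower, beside 5.35% and 8.09%. The 2 lower Clk/Clk calls became 1 without Clk/Clk mouse 2 or treated wild-type mouse 2.

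Among the 15 tested Nudix hydrolases other than the 2 members and Nudt8, 7 rose with the drug, beside 12.8% of all genes, and the median was 0.48, against 0.01 over all genes. Nudt18, which cleaves oxidised nucleoside diphosphates, rose to 9.47, 9.70 and 9.75 in treated wild type, against 7.49, 7.57 and 7.61 in untreated mice (2.08, SE 0.12). It was lower in null (-1.53, SE 0.12) and in Clk/Clk mice (-0.76, SE 0.12) than in treated wild type. Nudt5 rose by 1.12, Nudt9 by 0.88 and Nudt14 by 0.79; these act on ADP-ribose or nucleotide sugars. Nudt4, a diphosphoinositol polyphosphate phosphatase, was higher in null mice than in treated wild type (0.75, SE 0.12).

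Cysteamine from vanins can be oxidised to hypotaurine, the precursor of taurine, which is also made from cysteine. In that list of 9 tested genes 2 rose and 3 fell with the drug (median 0.15), beside 12.8% and 7.77% of all genes. Cdo1, cysteine dioxygenase, fell to 11.46, 11.44 and 11.51 in treated wild type, against a mean of 13.56 in untreated mice (-2.09, SE 0.105). Csad, which decarboxylates the product of Cdo1, rose to 12.11, 12.24 and 12.41, against 9.72, 10.17 and 10.61 in untreated mice (2.09, SE 0.22).

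The taurine transporter Slc6a6 (-1.06, SE 0.109) and Baat, which joins bile acids to taurine or glycine (-0.99, SE 0.0791), fell. In null mice 4 of the 9 genes were higher than in treated wild type, beside 5.35% of all genes. These were Cdo1 (1.73), Slc6a13 (0.72), Slc6a6 (0.72) and Baat (0.68). In Clk/Clk mice Cdo1 (1.46, SE 0.105) and Acnat2 (1.68, SE 0.488, adjusted p = 0.0275), an acyl-CoA taurine N-acyltransferase of mouse peroxisomes, were higher. They were 2 of the 9, beside 2.64% of all genes. Acnat2, named for its drug call after its values were seen, was also the second gene that rose with the drug (1.41, SE 0.488, limma adjusted p = 0.0325). Its groups overlapped there, at 8.81, 8.11 and 9.67 in treated against 8.68, 6.99 and 6.70 in untreated wild-type mice. The 2 Clk/Clk calls became 1 when any Clk/Clk mouse or treated wild-type mouse 1 or 2 was left out. The 2 higher calls with the drug became 1 when treated mouse 1 or 3 or untreated mouse 2 or 3 was left out.

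The nitrilase family holds relatives of the vanins. Of 5 tested, 1 was called with the drug and 1 in Clk/Clk against treated wild-type mice, beside 20.6% and 9.13% of all genes. Upb1, a β-ureidopropionase, fell with the drug (-1.06, SE 0.0964) and was higher in Clk/Clk than in treated wild-type mice (0.73, SE 0.0964). In null against treated wild type limma called 0 of the 5, beside 13.4% of all genes. Of the 5, 3 had an unadjusted p under 0.05, a count that was not set against all genes.

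Acyl-CoA thioesterases release free CoA from acyl-CoA. Of 13 tested, 11 rose with the drug in wild type, with a median of 1.49, and 9 were lower in null than in treated wild type, with a median of -1.18. Over all genes 12.8% rose with the drug and 8.09% were lower in null mice. The mitochondrial Acot2 (5.32, SE 0.219), the cytosolic Acot1 (4.15, SE 0.13) and the peroxisomal Acot3 (3.36, SE 0.242) and Acot4 (2.53, SE 0.169) rose most. In null mice Acot2 (-2.90), Acot8 (-2.26), Acot3 (-1.82) and Acot4 (-1.66) were lower. These paralogues resemble one another, so cross-hybridisation between them is possible and was not tested. Acot11, named after its values were seen, was the 1 gene called higher in null mice (1.93, SE 0.662), with overlapping groups, and lost its call when null mouse 2, null mouse 3 or any treated wild-type mouse was left out. In Clk/Clk mice 1 of 13 was called, beside 9.13% of all genes: Acot9, which was lower (-1.17, SE 0.106).

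**Figure D4:**
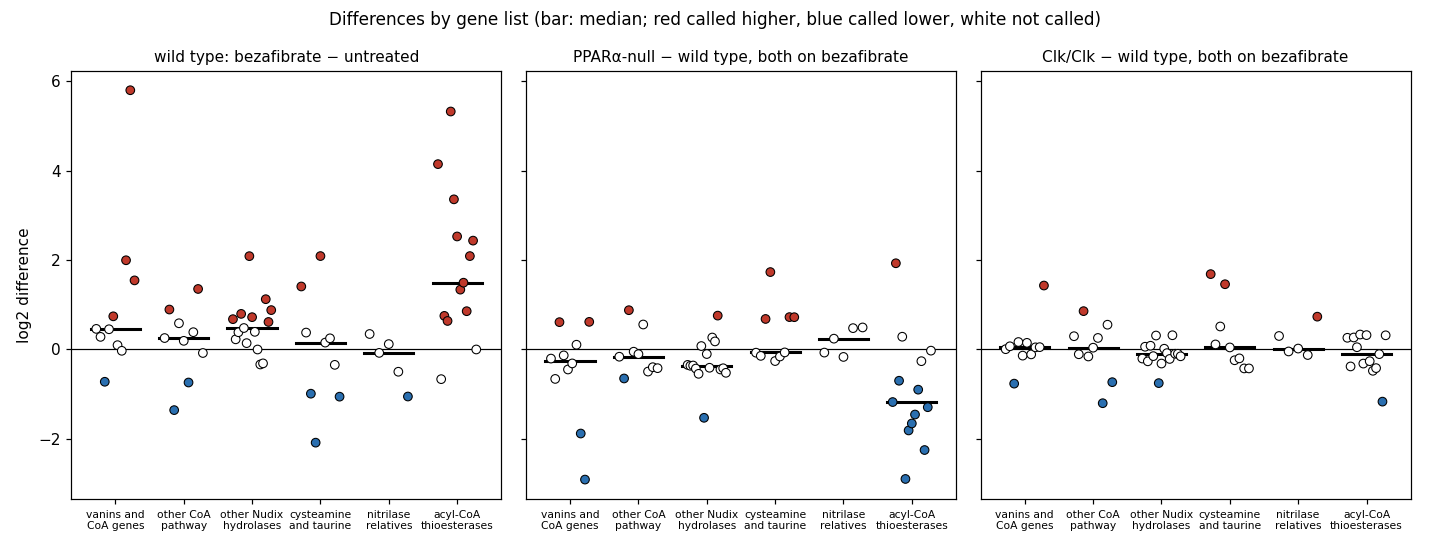
Log2 differences (points, 1 per gene) in the 3 main comparisons for the 10 genes and the 5 lists of related genes, with the list median as a bar and 3 mice per group. Of the lists, the thioesterases have the highest median with the drug (1.49) and the lowest in null mice (-1.18).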

How the data were processed

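Livers of 12 mice were measured on 1 Affymetrix array each, from 250 ng of total RNA. The deposited values are log2 expression per probe set, made with RMA per the submitters' processing notes, with version and settings not given in the sources used here. All 12 columns were used.

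Platform symbols were matched by gene identifier to RefSeq (GRCm38.p6), which changed 0 symbols; 34945 probe sets had 1 symbol, 932 several and 9160 none. A probe set was kept if 3 or more arrays showed it at or above their 40th percentile (28344, of which 23888 with 1 symbol), and each gene was represented by the one with the highest mean. Means of the 4 groups were estimated in 1 linear model (limma 3.58.1, R 4.3.3) with 8 residual degrees of freedom and a median residual SD of 0.124. A call needed a Benjamini-Hochberg adjusted p under 0.05 over 13598 genes and 1.5-fold. A second fit took every probe set past the filter. Differences between 2 members were compared by exact permutation over mice.

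The members and lists were chosen with earlier results of these data known. Named list genes are, per list and main comparison, up to 4 called genes whose groups do not overlap, by size of difference; likeness takes the 3 highest correlations per member. List genes without a tested probe set, Enpp1, Acnat1 and Acot10 among them, entered no comparison. Arrays have no sequencing depth, so the 3 mice per group limit the precision; the labels name no batch, and p-values measure the spread between these mice. The pipeline was tested on simulated data. Alternatives covered the filter, probe set summary and type, normalization, spread, samples fitted, replicate block, call rule and each array left out. The replicate numbers were not treated as pairs. Same-numbered mice of different groups deviated together at correlations of -0.09 to 0.13, with 3 of 18 pairs above 0.1. Differently numbered mice were not compared in this way, so these correlations do not show whether the numbers mark pairs.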

Additional observations from a re-analysis of the deposited data

Results flagged for a closer look

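A probe set that the platform assigns to both Ppcs and the predicted gene Gm8465 entered no gene comparison, since it names 2 genes. It nevertheless carried a signal above the untreated level. It read 9.41, 9.27 and 9.46 in treated wild-type mice, against 7.24, 7.09 and 7.19 in untreated mice, a difference of 2.21 (SE 0.0812, limma adjusted p = 9.64e-09 over all probe sets). Null mice read 7.35, 7.39 and 7.39 and Clk/Clk mice 9.55, 9.60 and 9.38. Which of the 2 genes gives the signal cannot be told apart.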

How the results depend on the processing

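Over the alternatives that leave out 1 array, 344 of 360 differences of single members kept direction and side of the threshold. Over the other alternatives that were counted 626 of 648 did. These totals leave out the changed fold minimum, the counts of calls and the differences between 2 members. The number of the 10 genes called was 2 to 5 for null against treated wild type with 1 array left out (2 without treated wild-type mouse 3, 5 without treated wild-type mouse 1). Without probe sets ending in _a_at, _s_at or _x_at it was 3 for the drug and 1 for Clk/Clk, because Ppcs and Nudt19 then had no probe set and Pank2 and Nudt7 were read from another; Pank2 then differed by -0.1553 with the drug, 0.279 in null, -0.1833 in Clk/Clk against untreated and -0.3071 in Clk/Clk against null mice. Without those probe sets 11911 genes were tested, and the count called over all of them is not given here. With no fold minimum 5 were called in null against untreated and 7 in Clk/Clk against null mice, beside 2975 and 5031 of all 13598 genes. With a 2-fold minimum 3 were called for the drug, 2 for null and 1 for Clk/Clk, beside 1242, 753 and 464 of all genes.

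For the drug, null, Clk/Clk, null against untreated, Clk/Clk against untreated and Clk/Clk against null, the calls over all genes were 5477, 3516, 2437, 1896, 5607 and 4113 when every probe set was tested, 6649, 4765, 3363, 2975, 6128 and 5031 with no fold minimum, and 1242, 753, 464, 324, 1142 and 922 with a 2-fold minimum, against 2798, 1827, 1241, 904, 2646 and 2069.

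Averaging probe sets per gene, Pank3 turned to -0.2538 in Clk/Clk against treated and -0.1754 against untreated wild type, and Pank1 minus Pank2 to 0.6618 with the drug and -0.3994 in null mice. With quantile normalization the Clk/Clk differences of Vnn1 and Coasy were -0.0079 and -0.0085. With 1 array left out, Clk/Clk differences ranged from -0.027 to 0.151 for Vnn1, -0.0479 to 0.073 for Coasy, -0.2324 to 0.2803 for Nudt19 and -0.0695 to 0.1661 for Pank1 minus Pank3, and the drug difference of Nudt19 from -0.0262 to 0.5768. None of the single-gene differences in this paragraph had a limma adjusted p under 0.05. The exact permutation test used for Pank1 minus Pank2 and Pank1 minus Pank3 cannot give p under 0.1 with 3 against 3 mice. It therefore cannot decide about those differences, nor can it with an array left out. Apart from the probe set choices, the cause was not tested.

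With the replicate number as a block, 5 of the 10 genes were called for the drug, 4 for null and 2 for Clk/Clk, the same numbers as without it. The 1 higher thioesterase call in null mice became 0.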
